A study of Homo sapiens with 12 samples.

Results

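The genes examined here encode 10 chaperones and folding factors of the endoplasmic reticulum (ER), HSP90B1, HSPA5, HYOU1, PDIA4, CALR, CANX, DNAJB11, DNAJC3, SDF2L1 and SYVN1. They were taken by symbol, through the Ensembl identifiers of the count data, from 60554 gene identifiers in all. All 10 passed the filter on low counts, as did 29003 genes in total. SYVN1 is a ubiquitin ligase of the ER membrane rather than a chaperone and was kept because it is on the list.

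RNA was sequenced from 12 libraries of a human embryonic kidney cell line, named HEK293 in the source and HEK293T as the cell line, at passage 10. HEK293 is an adenovirus-transformed line, and the 293T derivative also carries the SV40 large T antigen. Cells received an ON-TARGETplus SMARTpool siRNA, a mixture of several siRNAs against 1 transcript, aimed at RBM17, at U2SURP or at CHERP, and the reference cells received a control siRNA whose label names no pool. Each of these 4 groups had 3 libraries and no other genotype or agent is labelled, so the siRNA is the labelled difference between them. Library totals were 252505520 to 320986785 counts. The targeted transcripts stood at 23.0% of control siRNA for RBM17, 30.5% for U2SURP and 29.3% for CHERP. Of 8 HEK293 marker genes, 6 or 7 exceeded 1 CPM (counts scaled to a common library size) in each group, while PAX8, a kidney lineage factor, stayed near 0. Counts from mitochondrially encoded genes made up 3.98% to 5.15% of the knockdown libraries and 7.88% to 8.70% of the control siRNA libraries.

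The ER lumen folds proteins that enter the secretory pathway. HSPA5 (BiP), an HSP70, binds unfolded chains in cycles of ATP hydrolysis that J-domain partners such as DNAJB11 and DNAJC3 start and that the exchange factor HYOU1 (GRP170) completes, and HSP90B1 (GRP94) takes over selected clients. When unfolded proteins accumulate, the sensors ERN1 (IRE1), EIF2AK3 (PERK) and ATF6 start the unfolded protein response (UPR), and ATF6 and XBP1 act on the promoters of these chaperone genes through the ER stress response element. RBM17, U2SURP and CHERP are proteins associated with the U2 small nuclear ribonucleoprotein, the part of the spliceosome that recognises the branch point of introns.

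Of the 10 promoters, 6 held 1 of a pair of known stress elements. Because these chaperone genes are known to be acted on through the ER stress response element, matches may follow from the choice of genes. They describe the list and were not tested. Promoter windows of RefSeq (GRCh38.p14, 250 bases before to 50 after each gene start) were found for all 10 genes and were searched on both strands. The ER stress response element, written as CCAAT, then 9 bases of any kind, then CCACG, was present in 4 of the 10, HSP90B1, HSPA5, CALR and CANX. Across all 35116 promoter windows it was present in 27, or 0.0769%. The shorter ER stress response element II, ATTGG followed by 1 base of any kind and CCACG, was present in HYOU1 and SDF2L1 and in 19 of all windows, or 0.0541%. These 6 stretches are printed because they hold every match to either element, with the 5 bases at each end of a match in capitals, on the strand of the gene and before its RefSeq start. An element on the opposite strand reads as CGTGG and ATTGG or, for element II, as CGTGG and CCAAT.
HSP90B1, chr12:103930202-103930343, plus strand: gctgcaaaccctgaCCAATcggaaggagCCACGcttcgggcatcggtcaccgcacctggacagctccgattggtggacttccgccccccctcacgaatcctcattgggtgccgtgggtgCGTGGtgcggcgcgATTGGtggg
HSPA5, chr9:125241387-125241423, minus strand: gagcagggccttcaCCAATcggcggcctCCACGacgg
CALR, chr19:12938370-12938406, plus strand: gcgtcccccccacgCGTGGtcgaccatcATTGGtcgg
CANX, chr5:179698764-179698800, plus strand: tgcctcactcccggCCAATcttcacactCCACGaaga
HYOU1, chr11:119057270-119057404, minus strand: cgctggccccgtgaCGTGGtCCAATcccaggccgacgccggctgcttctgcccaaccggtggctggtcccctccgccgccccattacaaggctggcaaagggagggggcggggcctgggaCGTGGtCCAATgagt
SDF2L1, chr22:21642100-21642128, plus strand: taagtcctcggaagCGTGGaCCAATcaaa

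HSP90B1 held the ER stress response element at 2 places, 194 to 176 and 89 to 71 bases before its start, and HYOU1 held element II at 2 places. The last bases of the HSP90B1 stretch lie inside a first exon of a longer transcript in GENCODE 29. That annotation starts the HSP90B1 gene at 103930107 and the CANX gene at 179678628, so both printed stretches lie inside the annotated span of their gene. The UPR element TGACGTGG, found in 0.729% of all windows, occurred once, in HYOU1, where it overlaps the distal element II. The cyclic AMP response element TGACGTCA was in none of the 10 windows and in 1.85% of all windows. The half-site CCACG alone was in 9 of 10 members and 38.1% of all windows, and CCAAT was in 9 of 10 members and 34.6% of all windows. PDIA4, DNAJB11, DNAJC3 and SYVN1 held neither full element with these letters in these windows.

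**Figure D1:**
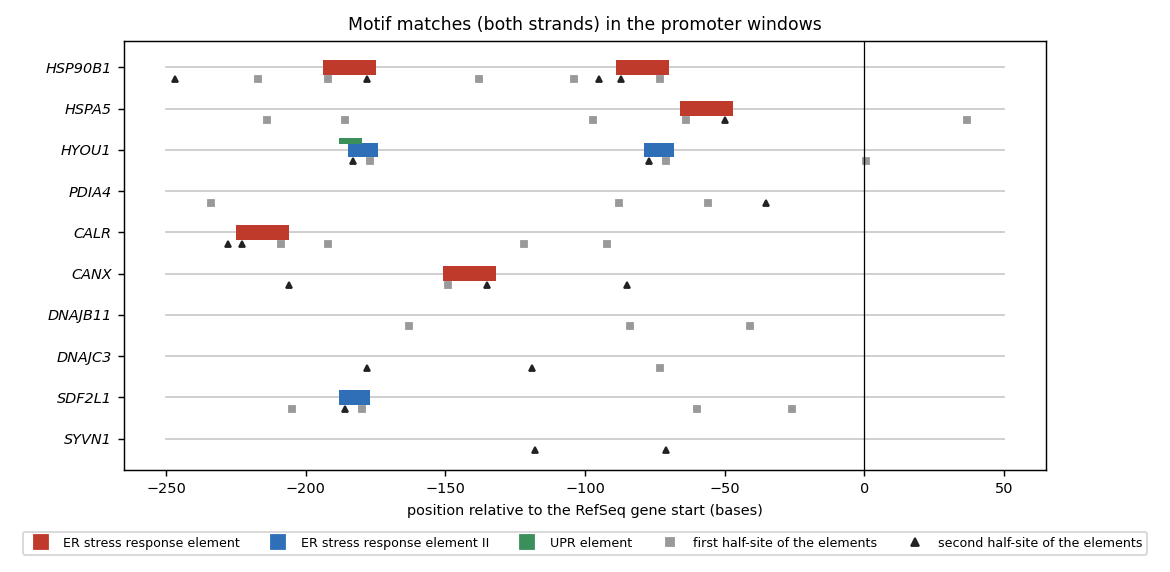
Motif matches in the RefSeq promoter windows of the 10 genes. The horizontal axis is the position relative to the gene start in bases, bars are full elements on either strand, and small symbols are the half-sites. Red bars mark HSP90B1, HSPA5, CALR and CANX, and blue bars mark HYOU1 and SDF2L1.

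The genes spanned a wide range of levels. Per length (RPKM on exonic length, from scaled counts), CANX averaged 328, 294 and 269 RPKM in RBM17, U2SURP and CHERP knockdown and 268 RPKM in control siRNA. HSP90B1 averaged 140, 168 and 106 RPKM in the same knockdowns and 269 RPKM in control siRNA. In control siRNA the libraries of these 2 genes overlapped. By mean RPKM, CANX stood first in each knockdown and HSP90B1 came after HSPA5. In U2SURP knockdown the libraries of HSP90B1 and HSPA5 overlapped, with means of 168 and 172 RPKM. HSPA5 and CALR were next in abundance, at 214 and 154 RPKM in control siRNA, followed by PDIA4 at 63.8 and HYOU1 at 44.8 RPKM. SYVN1, DNAJB11, DNAJC3 and SDF2L1 ranged from 9.94 to 19.1 RPKM in control siRNA, and DNAJC3 and SDF2L1 overlapped there.

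Added over the 10 genes, the level in CPM was lowest in CHERP knockdown. The sum was 4553, 4756 and 4497 CPM in RBM17 knockdown, 4082, 4347 and 4227 CPM in U2SURP knockdown, 3232, 3333 and 3456 CPM in CHERP knockdown, and 4868, 4729 and 5376 CPM in control siRNA. The libraries of U2SURP and CHERP knockdown did not overlap those of control siRNA or each other, while the second RBM17 knockdown library lay just above the second control siRNA library. Abundant members weigh most in this sum. In control siRNA, CANX and HSP90B1 averaged 1668 and 1264 CPM of a mean sum of 4991 CPM. In U2SURP knockdown they averaged 1831 and 791 CPM of a mean sum of 4219 CPM. In bulk RNA, fewer cells with the transcript and less transcript per cell cannot be told apart.

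In CHERP knockdown 9 of the 10 genes fell and none rose, with CANX not passing the test. For comparison, 24.6% of all tested genes were called lower and 22.8% higher in CHERP knockdown (edgeR quasi-likelihood, adjusted p under 0.05). The median log2 fold change was -0.78 over the 10 genes and -0.0035 over all tested genes. None was higher at an unadjusted p under 0.05 or with DESeq2 either. The libraries of the 2 groups did not overlap for 9 of the 10 genes, as for 54.9% of all tested genes.

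In U2SURP knockdown the same 9 genes fell and none rose. Of all tested genes, 22.2% were called lower and 21.1% higher. The median log2 fold change was -0.30 over the 10 genes and -0.025 over all tested genes. CANX was higher at an unadjusted p under 0.05 and with DESeq2, the single member for which this was so.

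In RBM17 knockdown the genes split. HSP90B1, HSPA5, PDIA4 and SYVN1 fell, HYOU1, CANX and SDF2L1 rose, and CALR, DNAJB11 and DNAJC3 were not called. Of all tested genes, 29.3% were called lower and 25.4% higher, so the 4 and 3 of 10 are close to the shares over all genes. The median log2 fold change was -0.087 over the 10 genes and -0.099 over all tested genes. Over the tested protein-coding genes, the type of all 10 members, the median was 0.060, above that of the members. The 3 comparisons share the 3 control siRNA libraries. No label says that the libraries of a group came from separate cultures, so the p-values measure the spread between libraries, which may be technical. With mitochondrially encoded genes left out before scaling, each of these calls against control siRNA was kept except that CANX in U2SURP knockdown became called and DNAJC3 in U2SURP knockdown was lost.

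**Figure D2:**
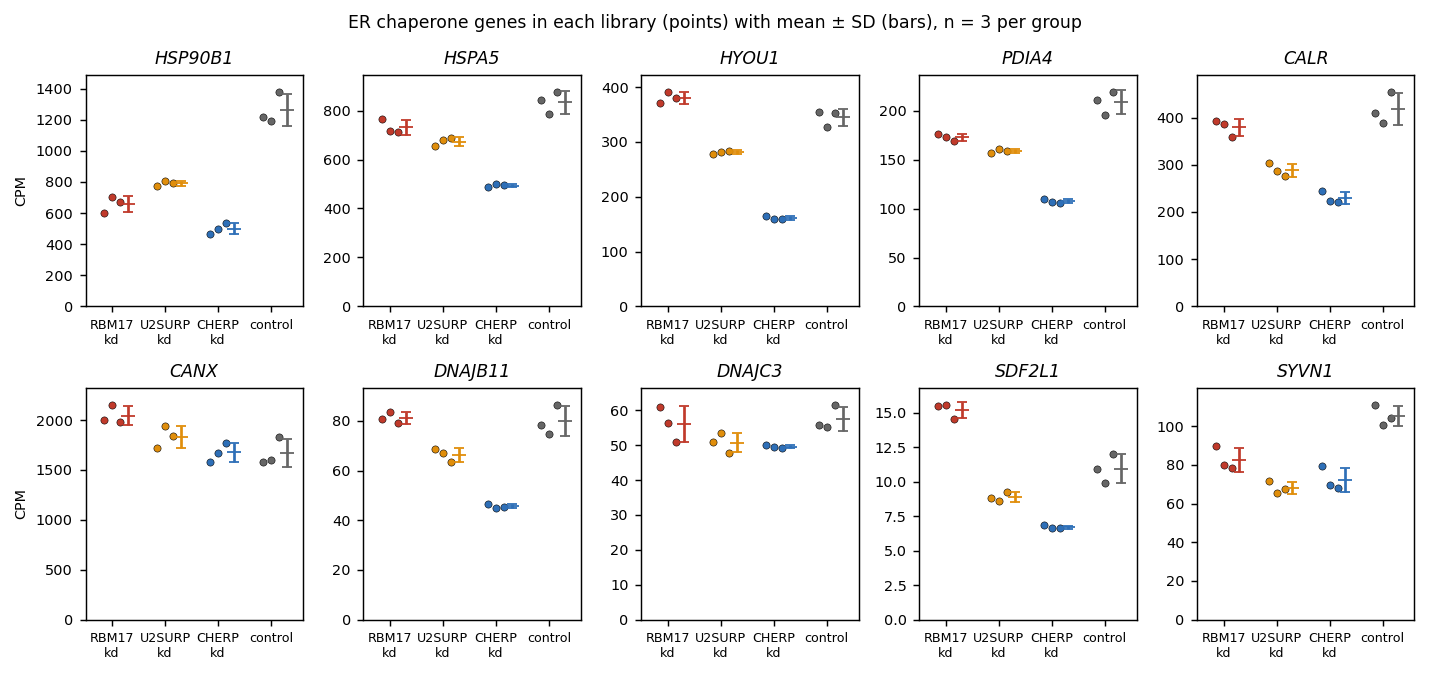
CPM of each of the 10 genes (vertical axes from 0) in each library, by group. Points are the 3 libraries of a group and bars are the mean ± SD. For HSP90B1 the 9 knockdown libraries lie between 464 and 808 CPM, below the 3 control siRNA libraries at 1194 to 1380 CPM.

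HSP90B1 (ENSG00000166598, chromosome 12, 103930107 to 103953645, plus strand, GRCh38), the HSP90 of the ER lumen, was the single member with a fall in all 3 knockdowns beyond 0.6 log2 units. It had 603, 702 and 673 CPM in RBM17 knockdown, 773, 808 and 792 CPM in U2SURP knockdown, 464, 500 and 533 CPM in CHERP knockdown, and 1217, 1194 and 1380 CPM in control siRNA. Every knockdown library was below every control siRNA library, and the 3 knockdowns did not overlap each other. The log2 fold change against control siRNA was -0.94 ± 0.066 (SE) in RBM17 knockdown (adjusted p = 3.96e-11). It was -0.68 ± 0.066 in U2SURP knockdown (adjusted p = 2.02e-08) and -1.34 ± 0.067 in CHERP knockdown (adjusted p = 1.68e-13). The transcript thus stood at 52.2%, 62.6% and 39.5% of control siRNA in RBM17, U2SURP and CHERP knockdown.

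HSP90B1 was also the single member that was lower in RBM17 than in U2SURP knockdown, by -0.26 ± 0.066 log2 units (adjusted p = 0.002). Among 10930 protein-coding genes averaging at least 5 CPM, its change ranked 148th from the lowest in RBM17 knockdown, 317th in U2SURP knockdown and 58th in CHERP knockdown. Its processed pseudogenes HSP90B2P and HSP90B3P, which could take some of its reads, averaged 0.978 and 0.218 CPM over all libraries. The gene on the opposite strand, C12orf73, averaged 13.7 CPM, against 803 CPM for HSP90B1.

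HSPA5 (ENSG00000044574, chromosome 9, 125234853 to 125241330, minus strand) is BiP, the HSP70 of the ER and the usual reporter of the UPR. It had 767, 718 and 711 CPM in RBM17 knockdown, 654, 678 and 689 CPM in U2SURP knockdown, 486, 499 and 494 CPM in CHERP knockdown, and 843, 784 and 877 CPM in control siRNA. All 9 knockdown libraries were below the 3 control siRNA libraries, and CHERP knockdown lay apart from the other knockdowns. Its log2 fold change was -0.19 ± 0.053 in RBM17 knockdown (adjusted p = 0.00421), -0.31 ± 0.053 in U2SURP knockdown (adjusted p = 4.66e-05) and -0.76 ± 0.054 in CHERP knockdown (adjusted p = 5.67e-11). The call in RBM17 knockdown was lost when RBM17 knockdown and control siRNA were fitted alone (adjusted p = 0.0589) and without both RBM17 knockdown library 2 and control siRNA library 3 (adjusted p = 0.0619).

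HYOU1 (ENSG00000149428, chromosome 11, 119044189 to 119057202, minus strand), the exchange factor of HSPA5, showed a wide span between knockdowns. It had 370, 392 and 380 CPM in RBM17 knockdown, 278, 282 and 284 CPM in U2SURP knockdown, 166, 159 and 160 CPM in CHERP knockdown, and 354, 327 and 353 CPM in control siRNA. The 4 groups did not overlap, with RBM17 knockdown highest and CHERP knockdown lowest. Against control siRNA the log2 fold change was 0.14 ± 0.049 in RBM17 knockdown (adjusted p = 0.0165), -0.29 ± 0.049 in U2SURP knockdown (adjusted p = 3.53e-05) and -1.09 ± 0.05 in CHERP knockdown (adjusted p = 4.43e-14). The rise in RBM17 knockdown was not called among protein-coding genes alone (adjusted p = 0.119), without RBM17 knockdown library 2 (adjusted p = 0.0781) or without control siRNA library 2 (adjusted p = 0.104). In CHERP knockdown HYOU1 stood at 46.9% of control siRNA.

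DNAJB11 (ENSG00000090520, chromosome 3, 186567403 to 186585800, plus strand) is ERdj3, a J-domain partner that delivers unfolded chains to HSPA5. It had 80.8, 83.5 and 79.0 CPM in RBM17 knockdown, 68.6, 67.1 and 63.3 CPM in U2SURP knockdown, 46.5, 45.0 and 45.4 CPM in CHERP knockdown, and 78.4, 74.9 and 86.4 CPM in control siRNA. RBM17 knockdown lay within the range of control siRNA, and the other knockdowns lay below it. The log2 fold change was 0.022 ± 0.054 in RBM17 knockdown (95% interval -0.090 to 0.13, adjusted p = 0.758). It was -0.27 ± 0.054 in U2SURP knockdown (adjusted p = 0.000277) and -0.81 ± 0.055 in CHERP knockdown (adjusted p = 2.88e-11). TBCCD1, which overlaps it on the opposite strand, averaged 11.7 CPM.

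SDF2L1 (ENSG00000128228, chromosome 22, 21642261 to 21644298, plus strand), a small lumenal protein that works in a complex with DNAJB11, was the least abundant member in CPM. It had 15.5, 15.5 and 14.5 CPM in RBM17 knockdown, 8.84, 8.57 and 9.23 CPM in U2SURP knockdown, 6.83, 6.64 and 6.63 CPM in CHERP knockdown, and 10.9, 9.86 and 11.98 CPM in control siRNA. The groups did not overlap, and SDF2L1 had the largest rise of the 10 genes in RBM17 knockdown. SDF2L1 had a log2 fold change of 0.47 ± 0.071 in RBM17 knockdown (adjusted p = 3.96e-06), -0.30 ± 0.071 in U2SURP knockdown (adjusted p = 0.00136) and -0.71 ± 0.072 in CHERP knockdown (adjusted p = 2.01e-08). When GC content and length were modelled as offsets, the fall in U2SURP knockdown was -0.16 and no longer called (adjusted p = 0.0808). SDF2L1 and DNAJB11, whose products share a complex, thus differed in RBM17 knockdown in whether they passed the test.

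DNAJC3 (ENSG00000102580, chromosome 13, 95677139 to 95794989, plus strand) is a further J-domain partner of HSPA5, also known as P58IPK for its inhibition of eIF2 alpha kinases. It had 61.0, 56.4 and 50.7 CPM in RBM17 knockdown, 50.9, 53.4 and 47.9 CPM in U2SURP knockdown, 50.05, 49.5 and 49.2 CPM in CHERP knockdown, and 55.8, 55.3 and 61.5 CPM in control siRNA. RBM17 knockdown overlapped control siRNA, and U2SURP knockdown overlapped CHERP knockdown. DNAJC3 had a log2 fold change of -0.036 ± 0.062 in RBM17 knockdown (adjusted p = 0.65), -0.18 ± 0.062 in U2SURP knockdown (adjusted p = 0.0209) and -0.21 ± 0.062 in CHERP knockdown (adjusted p = 0.00622). The fall in U2SURP knockdown was lost under 6 of 20 alternatives, among them without U2SURP knockdown library 3 (adjusted p = 0.127), without control siRNA library 3 (adjusted p = 0.11) and with DESeq2 (adjusted p = 0.0642). The fall in CHERP knockdown was lost without both RBM17 knockdown library 2 and control siRNA library 3 (adjusted p = 0.0503).

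PDIA4 (ENSG00000155660, chromosome 7, 149003062 to 149028641, minus strand) is ERp72, a protein disulfide isomerase that forms and rearranges disulfide bonds. It had 176, 174 and 169 CPM in RBM17 knockdown, 157, 161 and 159 CPM in U2SURP knockdown, 110, 107 and 106 CPM in CHERP knockdown, and 211, 196 and 220 CPM in control siRNA. The 4 groups did not overlap, in the order CHERP, U2SURP, RBM17 and control from low to high. PDIA4 fell by 0.27 ± 0.05 log2 units in RBM17 knockdown (adjusted p = 5.23e-05), by 0.40 ± 0.05 in U2SURP knockdown (adjusted p = 7.18e-07) and by 0.96 ± 0.05 in CHERP knockdown (adjusted p = 3.82e-13).

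CALR (ENSG00000179218, chromosome 19, 12938578 to 12944489, plus strand) and CANX are the lectin chaperones calreticulin and calnexin, which hold glycoproteins during folding, the first soluble in the lumen and the second anchored in the membrane. CALR had 393, 386 and 359 CPM in RBM17 knockdown, 303, 287 and 275 CPM in U2SURP knockdown, 244, 224 and 221 CPM in CHERP knockdown, and 409, 388 and 455 CPM in control siRNA. U2SURP and CHERP knockdown lay below control siRNA without overlap, and RBM17 knockdown overlapped it. CALR fell by 0.53 ± 0.061 log2 units in U2SURP knockdown (adjusted p = 2.14e-07) and by 0.86 ± 0.061 in CHERP knockdown (adjusted p = 6.19e-11). In RBM17 knockdown the log2 fold change was -0.14 ± 0.061 (adjusted p = 0.0581). Without control siRNA library 3 it was -0.072 (adjusted p = 0.324). It became called under 5 of 20 alternatives, among them without RBM17 knockdown library 1 (adjusted p = 0.0402) and without control siRNA library 2 (adjusted p = 0.0213).

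CANX (ENSG00000127022, chromosome 5, 179678628 to 179730925, plus strand) differed from its lectin partner. It had 1997, 2150 and 1982 CPM in RBM17 knockdown, 1717, 1936 and 1839 CPM in U2SURP knockdown, 1580, 1674 and 1772 CPM in CHERP knockdown, and 1577, 1599 and 1827 CPM in control siRNA. RBM17 knockdown lay above control siRNA without overlap, while the other knockdowns overlapped it. The log2 fold change was 0.29 ± 0.065 in RBM17 knockdown (adjusted p = 0.0005) and 0.13 ± 0.065 in U2SURP knockdown (adjusted p = 0.101). In CHERP knockdown it was 0.0066 ± 0.065 (95% interval -0.13 to 0.14, adjusted p = 0.947). Without control siRNA library 3, the highest control library for this gene, the difference in U2SURP knockdown was 0.21 and was called (adjusted p = 0.0104). CANX and HSP90B1 both carry a full ER stress response element in the stretches printed above, and they had the highest and the lowest log2 fold change of the 10 genes in U2SURP and CHERP knockdown.

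SYVN1 (ENSG00000162298, chromosome 11, 65121780 to 65134533, minus strand) is HRD1, the ubiquitin ligase that marks misfolded ER proteins for the proteasome. It had 89.9, 79.7 and 78.3 CPM in RBM17 knockdown, 71.6, 65.3 and 67.4 CPM in U2SURP knockdown, 79.5, 69.5 and 68.0 CPM in CHERP knockdown, and 111, 101 and 104 CPM in control siRNA. All knockdown libraries were below all control siRNA libraries, and U2SURP and CHERP knockdown overlapped. SYVN1 fell by 0.35 ± 0.064 log2 units in RBM17 knockdown (adjusted p = 5.48e-05), by 0.63 ± 0.064 in U2SURP knockdown (adjusted p = 3.82e-08) and by 0.54 ± 0.064 in CHERP knockdown (adjusted p = 1.92e-07). In the annotation SYVN1 overlaps FAU on its own strand and MRPL49 on the opposite strand, which averaged 196 and 69.6 CPM against 82.1 CPM for SYVN1, so reads in shared stretches are uncertain.

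**Figure D3:**
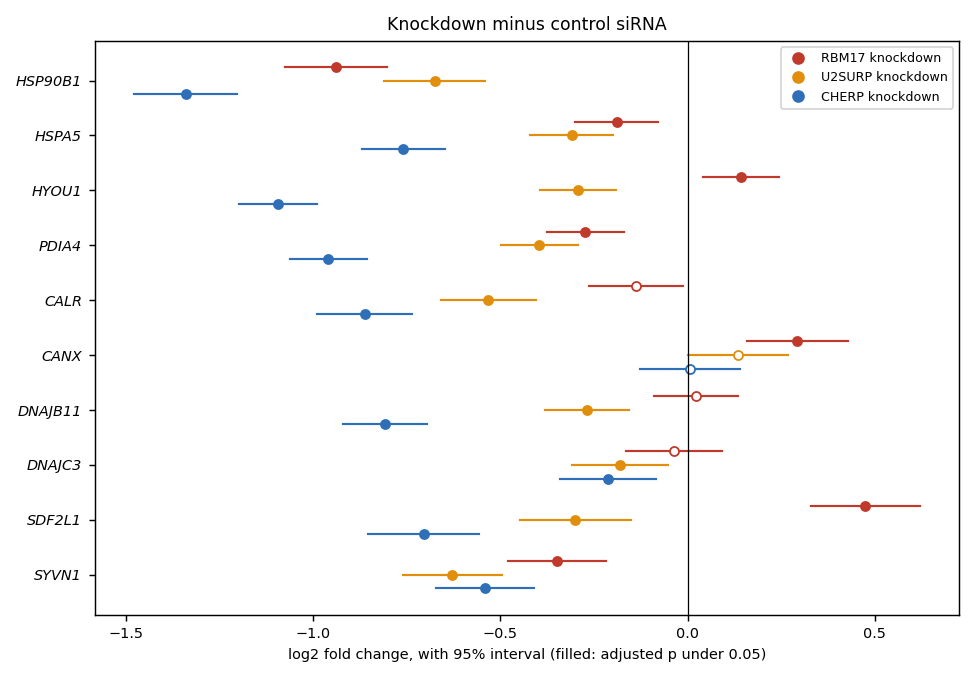
Log2 fold change of each gene in each knockdown against control siRNA, with its 95% interval from the fit, on the horizontal axis, and genes down the page. Filled points had an adjusted p under 0.05. In CHERP knockdown 9 points lie left of 0, from -1.34 for HSP90B1 to -0.21 for DNAJC3, and CANX lies at 0.0066.

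The knockdowns were then set against each other, which tests whether they differ. RBM17 knockdown was higher than CHERP knockdown for all 10 genes and lower for none, with 26.1% of all tested genes called higher and 25.5% lower. The median difference was 0.63 log2 units over the 10 genes, -0.060 over all tested genes and 0.086 over the tested protein-coding genes. None was lower at an unadjusted p under 0.05 or with DESeq2. HYOU1 and SDF2L1 differed most, by 1.24 ± 0.05 log2 units (adjusted p = 2.68e-15) and 1.18 ± 0.072 log2 units (adjusted p = 2.57e-12). DNAJC3 and SYVN1 differed least, by 0.18 ± 0.062 (adjusted p = 0.0193) and 0.19 ± 0.064 log2 units (adjusted p = 0.014). Both of these calls were lost among protein-coding genes alone, with adjusted p = 0.149 for DNAJC3 and 0.129 for SYVN1. Without RBM17 knockdown library 1 the adjusted p was 0.138 for DNAJC3 and 0.103 for SYVN1, and without CHERP knockdown library 2 it was 0.0543 and 0.0733. DNAJC3 was also lost without RBM17 knockdown library 2 (adjusted p = 0.0523).

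U2SURP knockdown was higher than CHERP knockdown for 7 genes and lower for none, with 15.0% of all tested genes called higher and 12.9% lower. None was lower at an unadjusted p under 0.05 or with DESeq2. The 7 were HSP90B1, HSPA5, HYOU1, PDIA4, CALR, DNAJB11 and SDF2L1, with differences of 0.33 to 0.80 log2 units. HYOU1 had the largest, 0.80 ± 0.05 (adjusted p = 2.95e-11), and HSP90B1 the next, 0.66 ± 0.066 (adjusted p = 5.49e-08). CANX, DNAJC3 and SYVN1 were not called, with 95% intervals of -0.0064 to 0.26, -0.095 to 0.16 and -0.22 to 0.044 log2 units.

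RBM17 knockdown was higher than U2SURP knockdown for 6 genes and lower for 1, HSP90B1, with 23.0% of all tested genes called higher and 21.5% lower. SDF2L1 differed by 0.77 ± 0.071 log2 units (adjusted p = 5.53e-09), HYOU1 by 0.44 ± 0.049 (adjusted p = 1.37e-07) and CALR by 0.39 ± 0.061 (adjusted p = 1.11e-05). DNAJB11, SYVN1 and PDIA4 completed the 6, at 0.29, 0.28 and 0.12 log2 units. The call of PDIA4 (adjusted p = 0.0465) was lost under 11 of 20 alternatives, with an adjusted p of up to 0.192. HSPA5, CANX and DNAJC3 missed the threshold with adjusted p between 0.0516 and 0.0717 and were called with DESeq2, which called 9 of the 10 higher.

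**Figure D4:**
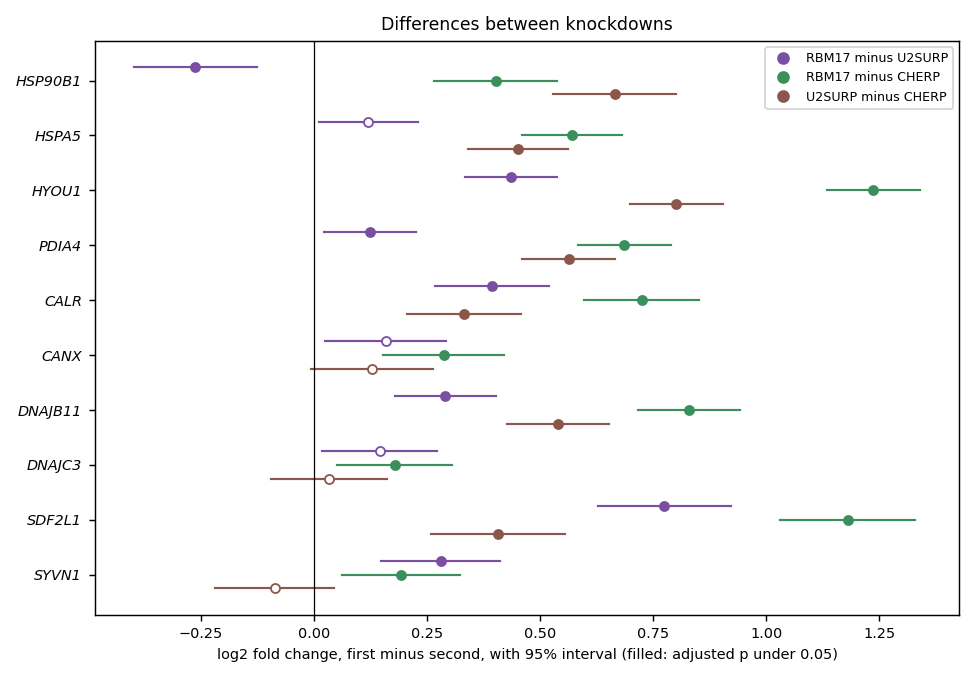
Log2 difference of each gene between knockdowns (first minus second) with its 95% interval from the fit, on the horizontal axis, and genes down the page. Filled points had an adjusted p under 0.05. Green points, RBM17 minus CHERP, lie right of 0 for all 10 genes, and the one filled point left of 0 is HSP90B1 in RBM17 minus U2SURP.

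The order of the groups therefore depended on the gene. CHERP knockdown was lowest for HSP90B1, HSPA5, HYOU1, PDIA4, CALR, DNAJB11 and SDF2L1, and in each case it differed from the next lowest group (adjusted p of 0.000213 or less). For DNAJC3 and SYVN1 the difference between the lowest and second lowest groups, CHERP and U2SURP knockdown, was not called (adjusted p = 0.748 and 0.343). Control siRNA was highest for HSP90B1, HSPA5, PDIA4, CALR, DNAJC3 and SYVN1, although the difference between RBM17 knockdown and control siRNA was not called for CALR (adjusted p = 0.0581) and DNAJC3 (adjusted p = 0.65). RBM17 knockdown was highest for HYOU1, CANX, DNAJB11 and SDF2L1, and its difference from the next group was not called for DNAJB11 (adjusted p = 0.758 against control siRNA) and narrowly missed the threshold for CANX (adjusted p = 0.0516 against U2SURP knockdown), whose libraries did not overlap between these groups.

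The other genes of the pathway were read from lists written with earlier results of these data known, so their counts are descriptions and not tests. They are set against the shares of all tested genes called lower and higher. These were 29.3% and 25.4% in RBM17 knockdown, 22.2% and 21.1% in U2SURP knockdown, and 24.6% and 22.8% in CHERP knockdown. Of 35 other ER chaperones and foldases, 16 fell and 5 rose in RBM17 knockdown, 30 fell and none rose in U2SURP knockdown, and 28 fell and none rose in CHERP knockdown. None was higher in U2SURP or CHERP knockdown at an unadjusted p under 0.05 or with DESeq2. The list's median log2 fold change was -0.11, -0.35 and -0.33 in RBM17, U2SURP and CHERP knockdown, against -0.099, -0.025 and -0.0035 over all tested genes. For this list and those below, the median over tested protein-coding genes was 0.060, 0.0095 and -0.0028 in the same knockdowns. PDIA6, a disulfide isomerase, fell by 0.36 ± 0.056 log2 units in U2SURP knockdown (adjusted p = 1.5e-05) and by 0.64 ± 0.056 in CHERP knockdown (adjusted p = 2.13e-09), and was -0.073 in RBM17 knockdown (adjusted p = 0.28). FKBP2, a prolyl isomerase of the ER, averaged 8.62 CPM in CHERP knockdown and 18.9 CPM in control siRNA, a log2 fold change of -1.13 ± 0.069 (adjusted p = 4.94e-12). CRELD2, an ER stress-induced folding factor, rose by 0.37 log2 units in RBM17 knockdown (adjusted p = 7.74e-06) and fell by 0.37 in U2SURP knockdown (adjusted p = 1.54e-05) and by 0.28 in CHERP knockdown (adjusted p = 0.000399). It thus changed in the direction of SDF2L1 in each knockdown.

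Of 16 UPR sensors and transcription factors, 7 fell and 5 rose in RBM17 knockdown, 7 fell and 5 rose in U2SURP knockdown, and 10 fell and 2 rose in CHERP knockdown. The median log2 fold change was -0.026, 0.019 and -0.23 in RBM17, U2SURP and CHERP knockdown, against -0.099, -0.025 and -0.0035 over all tested genes. Over all genes, 29.3%, 22.2% and 24.6% were called lower and 25.4%, 21.1% and 22.8% higher in the same knockdowns. ERN1 and ATF6 fell in CHERP knockdown, by 0.29 log2 units (adjusted p = 0.000103) and 0.23 log2 units (adjusted p = 0.00126), and were not called in the other knockdowns. EIF2AK3 fell in all 3, by 0.26, 0.32 and 0.42 log2 units in RBM17, U2SURP and CHERP knockdown. XBP1 had 220, 235 and 228 CPM in RBM17 knockdown, 185, 188 and 191 CPM in U2SURP knockdown, 183, 192 and 199 CPM in CHERP knockdown, and 231, 202 and 244 CPM in control siRNA. It fell by 0.26 log2 units in U2SURP knockdown (adjusted p = 0.00083) and by 0.24 in CHERP knockdown (adjusted p = 0.0019), and counts per gene do not tell its spliced, active form from the unspliced one.

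DDIT3 (CHOP) and ATF4, of the PERK branch, moved in opposite directions in U2SURP knockdown, and neither fell in CHERP knockdown. DDIT3 had 38.4, 36.9 and 38.4 CPM in RBM17 knockdown, 42.1, 38.8 and 40.9 CPM in U2SURP knockdown, 26.0, 28.1 and 27.0 CPM in CHERP knockdown, and 26.3, 21.995 and 25.7 CPM in control siRNA. RBM17 and U2SURP knockdown lay above control siRNA without overlap, and CHERP knockdown overlapped it. DDIT3 rose by 0.62 log2 units in RBM17 knockdown (adjusted p = 8.89e-09) and by 0.72 in U2SURP knockdown (adjusted p = 3.17e-09), and was 0.13 in CHERP knockdown (adjusted p = 0.0815). ATF4 fell by 0.62 log2 units in U2SURP knockdown (adjusted p = 2.54e-08) and rose by 0.15 in RBM17 knockdown (adjusted p = 0.0437) and by 0.18 in CHERP knockdown (adjusted p = 0.0178).

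Among 17 genes of the calnexin cycle and N-glycosylation, 10 fell and 1 rose in RBM17 knockdown, 13 fell and none rose in U2SURP knockdown, and 15 fell and 1 rose in CHERP knockdown. None was higher in U2SURP knockdown at an unadjusted p under 0.05 or with DESeq2. The list's median log2 fold change was -0.26, -0.27 and -0.36 in RBM17, U2SURP and CHERP knockdown, against -0.099, -0.025 and -0.0035 over all tested genes, of which 29.3%, 22.2% and 24.6% were called lower and 25.4%, 21.1% and 22.8% higher. MOGS, the glucosidase that trims the first glucose from new glycans, averaged 50.4, 39.5 and 37.7 CPM in RBM17, U2SURP and CHERP knockdown and 86.5 CPM in control siRNA. Its log2 fold change was -0.78, -1.13 and -1.20 in RBM17, U2SURP and CHERP knockdown, with an adjusted p of 6.43e-11 or less in each. Of 32 genes of ER-associated degradation, in which SYVN1 acts, 13 fell and 11 rose in RBM17 knockdown, 14 fell and 5 rose in U2SURP knockdown, and 23 fell and 4 rose in CHERP knockdown. Its median was -0.11, -0.13 and -0.22 in RBM17, U2SURP and CHERP knockdown. SEL1L, on this list, fell by 0.28, 0.23 and 0.34 log2 units in RBM17, U2SURP and CHERP knockdown (adjusted p = 0.00101, 0.00568 and 0.000159). VCP, the ATPase that extracts the ligases' substrates from the membrane, went against the list's median and rose by 0.59, 0.19 and 0.27 log2 units in the same knockdowns.

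Of 24 genes of the translocon, signal peptidase and targeting machinery, 5 fell and 12 rose in RBM17 knockdown, 9 fell and 9 rose in U2SURP knockdown, and 8 fell and 7 rose in CHERP knockdown. The median log2 fold change was 0.16, 0.064 and 0.012 in RBM17, U2SURP and CHERP knockdown, against -0.099, -0.025 and -0.0035 over all tested genes. With 29.3%, 22.2% and 24.6% of all genes called lower and 25.4%, 21.1% and 22.8% higher, several of these counts lie near the shares over all genes. SEC61A1, the pore of the translocon, fell by 0.44 log2 units in U2SURP knockdown (adjusted p = 3.43e-07) and by 0.68 in CHERP knockdown (adjusted p = 2.27e-10), while SRP72, a part of the signal recognition particle, rose by 0.53, 0.48 and 0.55 in RBM17, U2SURP and CHERP knockdown.

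**Figure D5:**
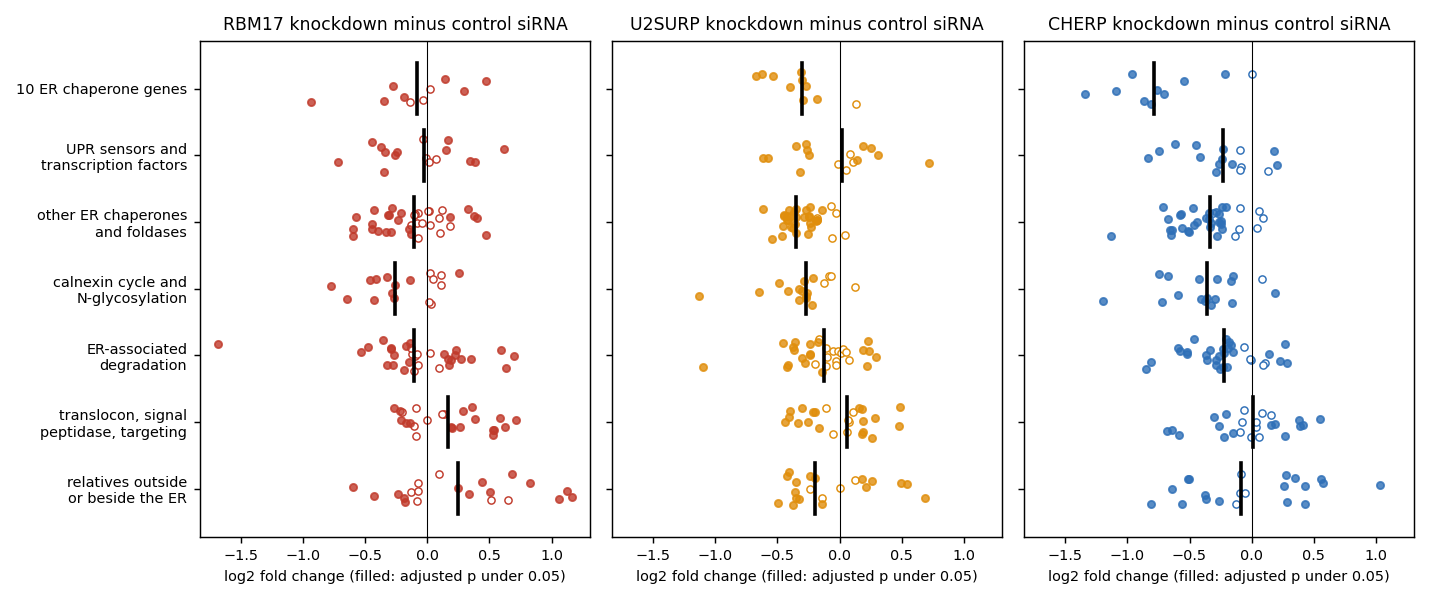
Log2 fold change against control siRNA (horizontal axis) of every tested gene of the 10 chaperone genes and of 6 lists of related genes, by knockdown. Each point is a gene, filled where the adjusted p was under 0.05, and the bar is the list's median. The 10 genes' median lies at -0.087, -0.30 and -0.78 in RBM17, U2SURP and CHERP knockdown.

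Relatives of the members act in other compartments or beside the members in the ER. HSP90AA1, the inducible HSP90 of the cytosol and a paralogue of HSP90B1, had 1683, 1959 and 1910 CPM in RBM17 knockdown, 844, 898 and 822 CPM in U2SURP knockdown, 987, 998 and 1066 CPM in CHERP knockdown, and 780, 830 and 940 CPM in control siRNA. It rose by 1.12 ± 0.068 log2 units in RBM17 knockdown (adjusted p = 5.04e-12), where HSP90B1 fell by 0.94. HSP90AB1, its constitutive partner, rose by 0.50 log2 units in RBM17 knockdown (adjusted p = 4.68e-06), and TRAP1, the HSP90 of mitochondria, by 0.44 (adjusted p = 2.01e-07). HSPA9, the mitochondrial HSP70, rose by 1.06, 0.55 and 0.43 log2 units in RBM17, U2SURP and CHERP knockdown, and HSPH1, a cytosolic exchange factor related to HYOU1, by 1.17, 0.22 and 0.35. HSPA8, the constitutive cytosolic HSP70, fell by 0.18 log2 units in RBM17 knockdown and by 0.50 in U2SURP knockdown and rose by 0.43 in CHERP knockdown. Over the 21 relatives, 5 fell and 9 rose in RBM17 knockdown, 11 fell and 6 rose in U2SURP knockdown, and 8 fell and 9 rose in CHERP knockdown. Their median log2 fold change was 0.25, -0.20 and -0.089 in RBM17, U2SURP and CHERP knockdown, against -0.099, -0.025 and -0.0035 over all tested genes, of which 29.3%, 22.2% and 24.6% were called lower and 25.4%, 21.1% and 22.8% higher.

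Genes with a similar profile were sought among 10920 protein-coding genes with at least 5 CPM, by the root mean square difference of centred log2 CPM over the 12 libraries. The gene closest to the mean of the 10 members was WLS, a carrier of Wnt proteins through the secretory pathway, at 0.0352 log2 units, and ROR1, SURF4, PDIA6 and SFRP1 were also among the closest, the last at 0.0494. The members, which make up that mean, lay between 0.0549 for HSPA5 and 0.323 for HSP90B1. HSP90B1 taken alone was closest to COL4A2, a collagen chain of basement membranes, at 0.0775 log2 units, followed by ASIC1, NEB, MFGE8, COL27A1 and HSPG2. COL4A2 was -0.99, -0.66 and -1.40 log2 units in RBM17, U2SURP and CHERP knockdown against control siRNA.

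Markers of other cell types were low and moved between groups. The summed level of 10 plasma and secretory cell markers was 41.7 to 44.8 CPM in RBM17 knockdown, 28.4 to 30.6 in U2SURP knockdown, 21.3 to 21.6 in CHERP knockdown and 27.9 to 30.8 in control siRNA, of which most was SDC1, a syndecan, and PRSS1 was at 0. CHGA averaged 6.23 CPM in RBM17 knockdown and 0.569 CPM in control siRNA, SCG3 3.84 and 0.481 CPM, and SDC1 30.8 and 25.7 CPM. Of the 7 tested markers of this list, 3 were called higher and 0 lower in RBM17 knockdown, against 25.4% and 29.3% of all tested genes. In U2SURP knockdown 2 were called higher and 0 lower, against 21.1% and 22.2%. In CHERP knockdown 2 were called higher and 4 lower, against 22.8% and 24.6%. The sums were 11.1 to 23.4 CPM for fibroblast, 2.81 to 5.34 CPM for blood and 10.9 to 15.3 CPM for epithelial markers over all groups. Their part in the differences above was not tested.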

How the data were processed

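Poly(A) RNA of 12 HEK293 libraries was sequenced after a stranded mRNA preparation, per the labels' protocols. The files deposited by the authors hold raw counts per Ensembl gene identifier. The submitters' processing notes name HISAT2 2.0.5, SAMtools, HTSeq and GRCh38. How strand was treated in counting, and with which annotation release, is not given in the sources used here, so reads of overlapping or antisense genes may be mixed.

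Groups came from the siRNA labels. The library numbers in the titles are contiguous within each group, so preparation batch and group cannot be told apart. Replicate pairs differed beyond sampling noise (chi-square per gene of 11.7 to 51.7), so none was counted as a duplicate. GENCODE 29 named 56996 of the 60554 gene identifiers.

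Counts were filtered with filterByExpr, scaled by TMM and tested in edgeR 4.0.16 under R 4.3.3 with the robust quasi-likelihood F test, all 4 groups in a single model. The common biological coefficient of variation was 0.0866. Benjamini-Hochberg adjustment ran over all 29003 genes in each comparison, and the call threshold was an adjusted p of 0.05. Standard errors were derived from F, as the size of the log2 fold change over the root of F. At these depths the spread between libraries, not counting error, sets the precision. CPM uses TMM-scaled totals, and RPKM divides it by GENCODE exonic length. The fit was tested on simulated data.

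Promoter windows came from RefSeq. The members and gene lists were chosen with earlier results of these data known. Genes named from a list were up to 3 per direction and knockdown with the largest called change and at least 5 CPM, plus a set of UPR sensors and relatives. Some of them are given, and a gene that meets the rule is not reported here. Alternatives were DESeq2 1.42.0 (size factors, Wald test), no filter, fits of 2 groups, protein-coding genes alone, no mitochondrially encoded genes, offsets for GC content and length, a fold of at least 2, and each library left out.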

Additional observations from a re-analysis of the deposited data

How the results depend on the processing

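Each of 60 member comparisons (10 genes, 6 comparisons) was recomputed under 20 alternatives beside the 2-fold limit. HSP90B1, PDIA4 and SYVN1 kept direction and call against control siRNA in all 3 knockdowns under all 20, and so did HSPA5, HYOU1, CALR, DNAJB11 and SDF2L1 in CHERP knockdown. In all, 5 of 10 genes did so in RBM17 knockdown, 7 in U2SURP knockdown and 8 in CHERP knockdown. When a 2-fold change was also required, the genes called against control siRNA were 3404 for RBM17 knockdown, 1578 for U2SURP knockdown and 2347 for CHERP knockdown, and 2181 between RBM17 and U2SURP, 3488 between RBM17 and CHERP and 916 between U2SURP and CHERP knockdown. Of the 29003 tested genes, 2759, 941 and 1355 were then lower and 645, 637 and 992 higher in RBM17, U2SURP and CHERP knockdown. Between knockdowns, 1638 were lower and 543 higher for RBM17 against U2SURP. The counts were 2507 and 981 for RBM17 against CHERP and 529 and 387 for U2SURP against CHERP. Members called lower were then 0 in RBM17 knockdown, 0 in U2SURP knockdown, 2 in CHERP knockdown (HSP90B1 and HYOU1) and 0 in RBM17 against U2SURP knockdown. Members called higher were 0 in RBM17 knockdown, 0 in RBM17 against U2SURP knockdown, 2 in RBM17 against CHERP knockdown (HYOU1 and SDF2L1) and 0 in U2SURP against CHERP knockdown.

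CANX made 1 member higher in U2SURP knockdown with DESeq2's Wald test, the fit of 2 groups, no mitochondrially encoded genes, without control siRNA library 3, and without both RBM17 knockdown library 2 and control siRNA library 3 (an alternative chosen after seeing the data). Changes of sign were confined to differences that were not called, and the cause was not tested. DNAJC3 in RBM17 knockdown was 0.018 with DESeq2 size factors and with its Wald test, 0.012 in the fit of 2 groups, 0.0084 with no mitochondrially encoded genes, 0.011 without both named libraries and between -0.10 and 0.032 with 1 library left out. DNAJB11 in RBM17 knockdown was -0.046 among protein-coding genes alone, -0.017 with GC and length offsets and between -0.023 and 0.082 with 1 library left out. CANX in CHERP knockdown was -0.046 with those offsets and between -0.067 and 0.078 with 1 library left out. DNAJC3 in U2SURP against CHERP knockdown was between -0.0059 and 0.073 with 1 library left out.

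With each library left out in turn, genes called against control siRNA numbered 14295 to 16002 for RBM17 knockdown, 10603 to 12957 for U2SURP knockdown and 11958 to 14092 for CHERP knockdown, and 11088 to 13249 (RBM17 and U2SURP), 13342 to 15291 (RBM17 and CHERP) and 6200 to 8601 (U2SURP and CHERP) between knockdowns. Members called lower numbered 4 to 5, 8 to 9 and 9 in RBM17, U2SURP and CHERP knockdown, and 1, 0 and 0 between knockdowns in the order above. Members called higher numbered 2 to 3, 0 to 1 and 0, and 5 to 9, 8 to 10 and 7. Alternative scalings shifted the log2 fold changes of protein-coding genes by a median of less than 0.1 log2 units in each comparison. No paired analysis was possible because the labels give no replicate numbers shared between groups.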
